A study of Mus musculus with 9 samples.

Results

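Hearts with a phosphatase-deficient phosphofructokinase 2 (PFK2), named GlycoHi, were compared with hearts with a kinase-deficient PFK2, named GlycoLo. The comparison rests on 6 of the 9 samples of the study, 3 GlycoHi and 3 GlycoLo hearts with 1 array each. The labels number them as replicates without saying that each came from a separate animal, so p-values measure the spread between these samples. The other 3 samples are wild-type (WT) hearts, used here only to say which line departs from WT. Every mouse was a male on the FVB background aged 15 weeks, and each heart was snap-frozen after excision. Both lines carry a PFK2 transgene expressed in the heart, and any effect of overexpression that the lines share does not enter the difference between them. The labels name neither the promoter nor the number of founder lines, so the transgene and the founder of a line cannot be told apart.

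PFK2 is a protein with a kinase and a phosphatase activity that makes and removes a fructose bisphosphate signal, the strongest known activator of the committed step of glycolysis. Loss of the phosphatase activity keeps this signal high and loss of the kinase activity keeps it low. ATF4, a transcription factor named often in what follows, is made when stress kinases slow translation, and it switches on genes of amino acid synthesis, amino acid import and tRNA charging. In the adult heart, fatty acids are the main fuel, glucose and ketone bodies are burned beside them, and the nuclear receptor PPAR alpha controls many genes of fatty acid use.

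The values are log2 signals of Affymetrix probe sets, and differences are GlycoHi minus GlycoLo on that scale, so 1 is a doubling and "rose" or "fell" means higher or lower in GlycoHi than in GlycoLo. Errors after a difference are the model's SE over 3 hearts against 3. Called probe sets are those with an adjusted p under 0.05 in limma, over 45037 tested. Array medians lay between 4.76 and 4.80, correlations between arrays across probe sets between 0.994 and 0.997, and the gap between actin probe sets at opposite ends of the transcript between 0.824 and 0.998, with no group apart. Of all probe sets tested 444 were called (0.986%), of which 267 were higher in GlycoHi (0.593%) and 177 lower (0.393%). Among the 19760 probe sets with 1 gene symbol, 172 were higher (0.87%) and 125 lower (0.633%), and these shares are the background for every count of called genes below. Groups did not overlap for any called probe set, and they did not overlap for 16.8% of all probe sets tested. The difference exceeded 1 in size for 82 called probe sets, 63 of them higher. The authors' deposited table lists 20662 probe sets, and its model is not described in the sources used here. It gave 516 of them an adjusted p under 0.05 for the same pair, 284 higher in GlycoHi and 232 lower. That count and the 444 rest on unlike sets, since 138 of the 444 are not in that table. The limma fit on the listed probe sets alone called 319. The probe sets of whole-heart RNA do not separate cells: fewer cells of a type and less RNA per cell cannot be told apart in any result below.

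WT hearts lay nearer to GlycoLo than to GlycoHi for most of the called probe sets. The WT mean was nearer to the GlycoLo mean for 374 of the 444 (84.2%), where the share over all probe sets tested was 53.9%. For 256 probe sets only the GlycoHi arrays stood apart from every WT array, and for 44 only the GlycoLo arrays did. For 140 both did and for 4 neither did. Over all 45037 probe sets tested, these counts were 5500, 3264, 2680 and 33593, in the same order. Of the 267 higher probe sets, 218 had WT nearer to GlycoLo, and of the 177 lower ones 156 did. Fitted to all 9 arrays, 938 probe sets were called between GlycoHi and WT (2.08%) and 38 between GlycoLo and WT (0.0844%). The 2 comparisons share the WT arrays, so their values are given side by side and not set against each other. The 3 WT values lay wholly between the lines, without overlap, for 103 of the called probe sets (23.2%) and for 0.677% of all. A wide gap between the lines leaves more room for WT to fall between them, so this share is a description.

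**Figure D1:**
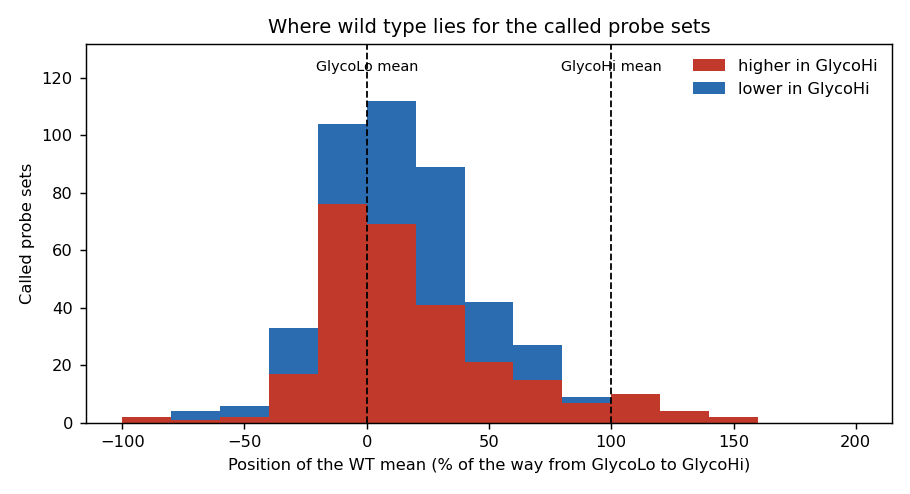
Histogram of the 444 called probe sets by the position of the WT mean, in percent of the way from the GlycoLo mean (0) to the GlycoHi mean (100), in steps of 20 and stacked by direction. The median position was 7.6% for the 267 probe sets higher in GlycoHi (red) and 18.3% for the 177 lower ones (blue).

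Pfkfb1 encodes the liver isoform of PFK2, and its probe set read at the top of the scale in both lines. On the GlycoLo arrays it read 14.34, 14.37 and 14.37 and on the GlycoHi arrays 14.43, 14.41 and 14.40, against 7.97, 7.74 and 7.95 in WT. The lines differed by 0.06 ± 0.06 (limma adjusted p = 0.741), so no difference in Pfkfb1 signal was detected, although arrays compress differences between very bright signals. The labels do not name the isoform of the transgene. The other isoform genes were not called either: Pfkfb2, the main heart isoform, differed by -0.11, the inducible Pfkfb3 by 0.07 and Pfkfb4 by 0.05.

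The largest difference was that of Tyr, tyrosinase, the first enzyme of melanin synthesis. It read 3.30, 3.28 and 3.10 in GlycoLo and 12.67, 12.99 and 12.68 in GlycoHi, with WT at 2.87, 3.21 and 3.23. GlycoLo and WT sat near the floor and GlycoHi near the top of the array, a difference of 9.56 ± 0.10 (limma adjusted p = 1.02e-08). The other 11 of 12 melanocyte markers were not called: Dct, a later melanin enzyme, differed by 0.57 (4.84, 5.28 and 5.01 against 5.81, 5.54 and 5.48), Pmel by 0.19 and Tyrp1 by -0.05. FVB is an albino strain with a mutant Tyr gene. The labels name no Tyr construct in either line, and the origin of this RNA was not tested.

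Several enzymes of serine, asparagine, proline and one-carbon synthesis rose, and Mthfd2, Asns and Phgdh had the 3 largest rises after Tyr among genes with 1 symbol. Mthfd2, the mitochondrial folate enzyme usually low in adult tissue, read 4.70, 4.62 and 5.14 in GlycoLo and 9.53, 9.29 and 9.54 in GlycoHi. Its difference was 4.63 ± 0.14, or 24.8-fold (limma adjusted p = 8.83e-06). Asns, asparagine synthetase, read 4.02, 4.06 and 4.18 in GlycoLo and 8.49, 8.18 and 8.29 in GlycoHi. The WT values of both genes lay with GlycoLo, at 4.82, 4.73 and 4.94 for Mthfd2 and at 3.87, 3.87 and 4.07 for Asns. The difference of Asns was 4.23 ± 0.09, or 18.8-fold (limma adjusted p = 1.40e-06). Phgdh, the first enzyme of serine synthesis, read 6.31, 6.34 and 6.15 against 9.32, 9.14 and 9.63, a rise of 3.10 ± 0.12. For these 3 genes every GlycoHi array lay above every GlycoLo and WT array by many times the spread within a group. Aldh18a1, the first committed enzyme of proline synthesis, read 6.42, 6.39 and 6.24 against 8.01, 8.02 and 7.95 (1.64 ± 0.07; limma adjusted p = 5.06e-05). Its WT values were 6.38, 6.24 and 6.39, again with GlycoLo. The probe sets of Asns, Phgdh, Trib3 and Aldh18a1 are of a kind that can cross-hybridise with related transcripts. The same holds for those of Atf4 and Eif4ebp1, described below.

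**Figure D2:**
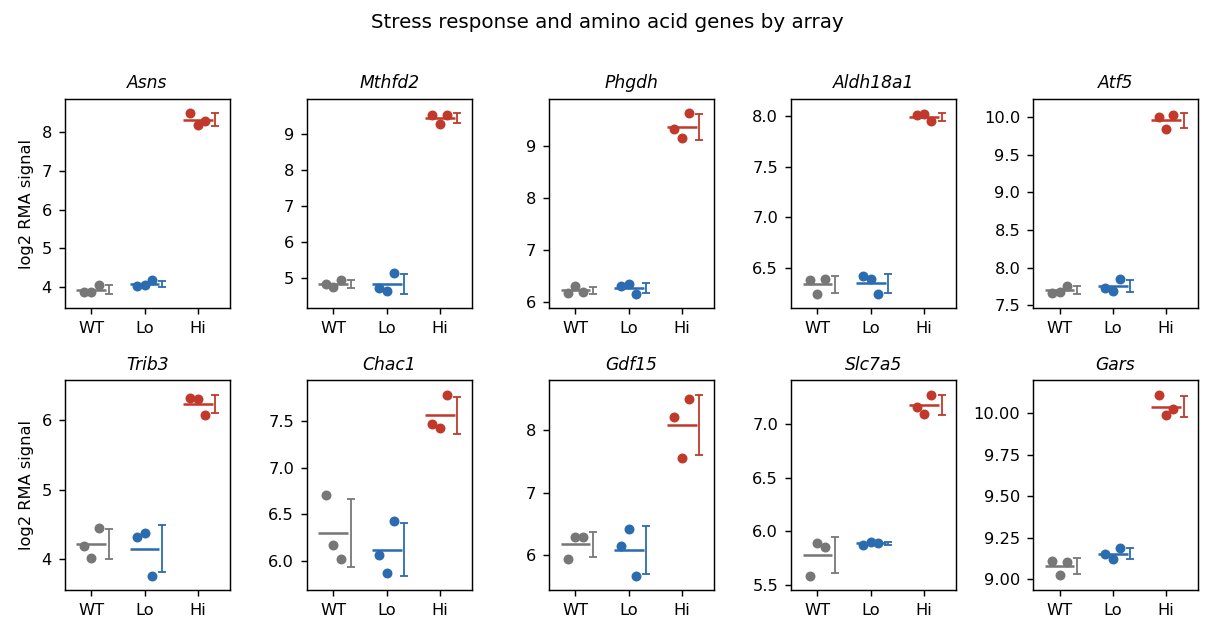
Log2 RMA signal of 10 genes of the stress response and of amino acid supply on each array, with 3 WT (grey), 3 GlycoLo (blue, Lo) and 3 GlycoHi (red, Hi) hearts. Lines are means and bars are the SD over 3 hearts. For each gene the GlycoHi arrays lie above all GlycoLo and WT arrays.

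Within the serine and one-carbon list 6 of 20 genes rose and 1 fell, with a median of 0.10. The median over all probe sets tested was -0.00295. Aldh1l2, a mitochondrial folate enzyme, rose by 1.27 ± 0.09. Psat1, the second enzyme of serine synthesis, read 5.10, 4.70 and 4.95 in GlycoLo against 5.95, 5.79 and 6.03 (1.01 ± 0.11; limma adjusted p = 0.00619). The third enzyme, Psph, was not called: its values were 6.43, 6.39 and 6.40 against 6.54, 6.54 and 6.57, a difference of 0.15 that is far smaller than that of the enzymes before it. Shmt2, which splits serine in mitochondria, differed by -0.12 and its groups overlapped. Its cytosolic counterpart Shmt1 rose by 0.95 ± 0.08 (4.62, 4.66 and 4.66 against 5.59, 5.46 and 5.73), and here GlycoLo was the line called against WT (-0.67, limma adjusted p = 0.0279) while GlycoHi was not (0.27, limma adjusted p = 0.182). Cth, of cysteine synthesis, rose by 0.85 ± 0.11, a call lost without 5 of the 6 single arrays (adjusted p up to 0.0962). The WT mean of Cth lay 66.7% of the way from the GlycoLo mean to the GlycoHi mean, so nearer to GlycoHi. The 1 fall was that of Mtr, methionine synthase, at 8.980, 8.999 and 8.970 in GlycoLo against 8.03, 8.05 and 7.94 in GlycoHi (-0.97 ± 0.06; limma adjusted p = 0.000579). The WT values of Mtr, 8.68, 8.45 and 8.65, lay between the lines. Psat1 lost its call without replicate 3 of either line or GlycoHi replicate 1 (adjusted p up to 0.0566).

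Of 23 genes of the ATF4 stress response 9 rose and 0 fell, with a median of 0.29. Atf5, a transcription factor of the same response, read 7.73, 7.69 and 7.85 in GlycoLo against 10.003, 9.843 and 10.022 in GlycoHi. That is a rise of 2.20 ± 0.08 (limma adjusted p = 1.90e-05). The pseudokinase Trib3 read 4.31, 4.37 and 3.75 against 6.32, 6.31 and 6.08, a rise of 2.095 ± 0.16. GlycoLo replicate 3 was the lowest of its group, and every GlycoLo value lay well below those of GlycoHi. Gdf15, a secreted stress hormone, read 6.15, 6.42 and 5.67 against 8.21, 7.56 and 8.50 (2.01 ± 0.26; limma adjusted p = 0.0121). The spread of Gdf15 was wide in both lines, and its call was lost without replicate 1 or 3 of either line (adjusted p up to 0.0892). Chac1, which degrades glutathione, rose by 1.44 ± 0.15, and Ddit3, the transcription factor CHOP, by 0.75 ± 0.08. Cebpg, a dimer partner of ATF4, rose by 0.73 ± 0.08, a call lost without GlycoLo replicate 2 or any single GlycoHi array (adjusted p up to 0.0606). Atf4 itself rose by 0.52 ± 0.09 (limma adjusted p = 0.0444), at 7.35, 7.19 and 7.27 against 7.95, 7.65 and 7.78, and its call was lost when any single array was left out (adjusted p up to 0.184) and with all 9 arrays in 1 model. Eif4ebp1, a translation repressor, rose by 0.50 ± 0.06, also lost when any single array was left out (adjusted p up to 0.0674). When each array was left out in turn, 5 to 7 genes of this list and 4 to 6 of the serine and one-carbon list were called higher.

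Other stress genes were mostly not called. Atf3 read 8.02, 7.28 and 7.83 in GlycoLo against 6.93, 7.65 and 8.12 in GlycoHi, overlapping groups with a difference of -0.15. Ppp1r15a, which lets translation resume, differed by 0.06 with overlapping groups. Nupr1, a stress-induced chromatin protein, was not called at 0.83 (limma adjusted p = 0.0667). Among 22 chaperones and folding factors of the endoplasmic reticulum 1 rose, the stress sensor Atf6 by 0.49 ± 0.07, and the list's median was -0.08. The call of Atf6 was lost when any single array was left out (adjusted p up to 0.0976). Of 17 mitochondrial chaperones and proteases and of 19 cytosolic heat shock genes 0 were called, with medians of -0.06 and 0.00051. Over all probe sets tested, limma gave an unadjusted p under 0.05 to 5552, where chance gives 2251.85.

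Cytosolic aminoacyl-tRNA synthetases, the enzymes that load amino acids onto tRNA, were called higher in 11 of 20 cases and lower in 0, with a median of 0.47. Gars (glycine) read 9.15, 9.12 and 9.19 in GlycoLo against 10.11, 9.99 and 10.02 in GlycoHi, a rise of 0.89 ± 0.06. Aars (alanine) read 8.30, 8.30 and 8.41 against 9.19, 9.19 and 9.28 (0.88 ± 0.07). Mars (methionine) rose by 0.77 ± 0.06 and Iars (isoleucine) by 0.72 ± 0.07. These rises are modest, and within each gene the arrays of a line lay much closer together than the lines did. Sars (serine) rose by 0.87, Eprs (glutamate and proline) by 0.76, Cars (cysteine) by 0.70, Nars (asparagine) by 0.68, Lars (leucine) by 0.59, Tars (threonine) by 0.48 and Yars (tyrosine) by 0.45. The 9 not called included Kars (lysine) at -0.05, Rars (arginine) at 0.04, Dars (aspartate) at 0.06 and Wars (tryptophan) at -0.02, each with overlapping groups. When each array was left out in turn, 5 to 8 of the 20 were called, and Eprs lost its call without GlycoLo replicate 3 (adjusted p = 0.0509). The calls of Cars, Tars and Yars were lost when any single array was left out (adjusted p up to 0.161, 0.0609 and 0.0724), that of Sars without 4 arrays (up to 0.0621) and that of Nars without GlycoLo replicate 1 or 3 (up to 0.0597). The separate synthetases of mitochondria held 0 called of 17, with a median of -0.11, or -0.06 without GlycoLo replicate 3.

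**Figure D3:**
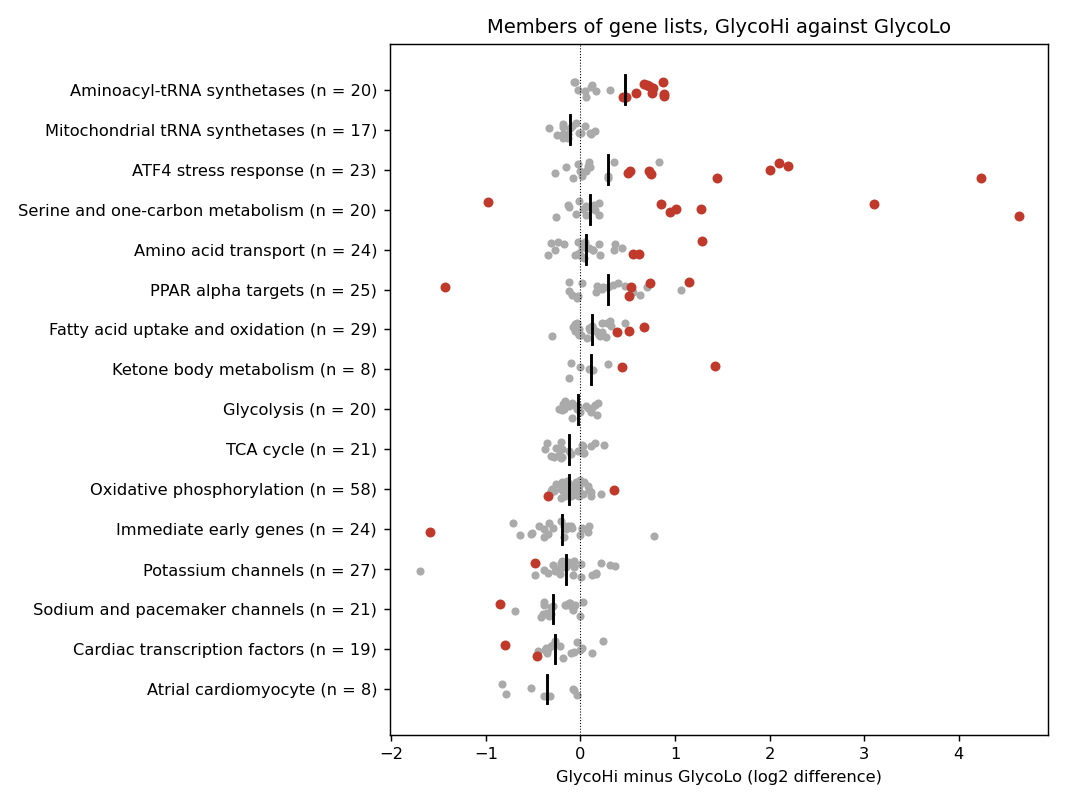
Difference between GlycoHi and GlycoLo (log2, horizontal) for each measured gene of 16 lists, with called genes in red, other genes in grey and the list's median as a black bar. The cytosolic tRNA synthetases have a median of 0.47 and the mitochondrial ones of -0.11, and the atrial markers all lie below 0.

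Amino acid transporters rose in 3 cases of 24, with a median of 0.05. Slc7a5, the light chain of the importer of large neutral amino acids, read 5.87, 5.90 and 5.89 in GlycoLo against 7.16, 7.09 and 7.27 in GlycoHi (1.28 ± 0.07; limma adjusted p = 0.000238). Its heavy chain Slc3a2 read 8.07, 8.01 and 8.03 against 8.68, 8.55 and 8.56 (0.56 ± 0.07). Both chains of this importer were higher on every GlycoHi array than on any GlycoLo array. Slc7a1, a carrier of basic amino acids, rose by 0.61 ± 0.09, and its call was lost when any single array was left out (adjusted p up to 0.136). The call of Slc3a2 was lost without GlycoLo replicate 2 or 3 (adjusted p up to 0.0572). The cystine carrier Slc7a11 stayed near the bottom of the scale in both lines and differed by 0.01.

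The promoters of these genes were searched for TGATGNAA (N is any base), the core of the element that ATF4 and C/EBP proteins bind together, on both strands of RefSeq promoters of build GRCm38.p6, 250 bases before to 50 after the start. Of the 29 called members of the 4 lists (serine and one-carbon, ATF4, tRNA synthetase and transport), 21 had a promoter in the table and 8 held the motif: Asns, Trib3, Chac1, Gars, Aars, Iars, Tars and Yars. That is 38.1% of genes, where 6 of 41 uncalled members of the lists (14.6%) and 4.51% of all genes in the promoter table held it. The lists hold kinds of genes that ATF4 is known to switch on, and they were chosen with earlier results of these data known. A share above that of all genes was therefore built into the choice, and the part of ATF4 was not tested. Counted per promoter, the share over the table was 3.97%. Among all called genes with a promoter it was found in 14 of 140 higher in GlycoHi (10%) and in 4 of 93 lower (4.30%). The 14 include the 8 list members named above, so this share is not separate from theirs. Of the genes tested with 1 symbol and a promoter, 3.16% held it. The other called members with a promoter had no match: Mthfd2, Phgdh, Shmt1, Psat1, Atf5, Ddit3, Cebpg, Gdf15, Atf4, Eprs, Sars, Slc3a2 and Slc7a1. Lack of a match in this window says nothing of the factor. A match is a run of letters and not a measured binding site. The 5 promoters below are shown because they carry the motif, in capitals, in genes with the larger rises of the stress and synthetase lists. They are read 5′ to 3′ along the gene, and a motif on the opposite strand appears as its reverse complement. Asns lies at chr6:7693160-7693459 (minus strand), Chac1 at chr2:119350992-119351291 (plus), Trib3 at chr2:152344011-152344310 (minus), Aars at chr8:111033592-111033891 (plus) and Gars at chr6:55037751-55038050 (plus).
Asns: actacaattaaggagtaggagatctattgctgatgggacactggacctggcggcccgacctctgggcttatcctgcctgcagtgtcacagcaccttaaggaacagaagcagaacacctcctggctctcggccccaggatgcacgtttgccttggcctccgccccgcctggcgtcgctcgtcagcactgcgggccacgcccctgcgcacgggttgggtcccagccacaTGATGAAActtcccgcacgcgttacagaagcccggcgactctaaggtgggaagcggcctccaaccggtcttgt
Chac1: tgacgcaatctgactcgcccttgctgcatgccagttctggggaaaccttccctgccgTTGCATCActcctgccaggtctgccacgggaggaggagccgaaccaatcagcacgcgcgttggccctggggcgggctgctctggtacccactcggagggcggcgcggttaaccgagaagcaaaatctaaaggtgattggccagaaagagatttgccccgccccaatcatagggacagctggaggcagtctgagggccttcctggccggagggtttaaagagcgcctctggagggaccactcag
Trib3: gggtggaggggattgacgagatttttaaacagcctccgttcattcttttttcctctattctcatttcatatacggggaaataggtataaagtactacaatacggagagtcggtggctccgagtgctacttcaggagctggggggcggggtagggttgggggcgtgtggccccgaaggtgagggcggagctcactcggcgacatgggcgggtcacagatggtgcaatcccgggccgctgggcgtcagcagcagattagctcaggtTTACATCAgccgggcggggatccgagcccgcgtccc
Aars: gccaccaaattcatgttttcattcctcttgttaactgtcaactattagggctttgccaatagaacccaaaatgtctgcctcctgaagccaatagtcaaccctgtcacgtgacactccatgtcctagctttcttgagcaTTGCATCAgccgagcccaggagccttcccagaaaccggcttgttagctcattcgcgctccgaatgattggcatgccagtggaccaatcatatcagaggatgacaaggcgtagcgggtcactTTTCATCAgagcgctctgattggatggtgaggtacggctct
Gars: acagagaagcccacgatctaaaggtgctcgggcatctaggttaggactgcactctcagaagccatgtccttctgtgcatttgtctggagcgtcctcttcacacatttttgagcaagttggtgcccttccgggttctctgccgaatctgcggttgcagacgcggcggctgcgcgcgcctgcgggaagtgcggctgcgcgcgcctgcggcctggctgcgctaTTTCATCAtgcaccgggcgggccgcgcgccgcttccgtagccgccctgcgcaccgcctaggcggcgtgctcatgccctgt
The motif of Asns lies on the gene's own strand and begins 23 bases before the start (position -23), in the promoter with the largest rise of the 5. Those of the other 4 lie on the opposite strand, at -193 in Chac1, 14 in Trib3, -30 in Gars, and -112 and 9 in Aars, which holds a pair.

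In ketone body metabolism 2 of 8 genes rose and 0 fell (median 0.11), and for one of them, Bdh1, it was GlycoLo that lay apart from WT. Bdh1, which interconverts the ketone bodies in mitochondria, read 7.41, 7.47 and 7.36 in GlycoLo against 9.02, 8.74 and 8.75 in GlycoHi, with WT at 8.94, 8.69 and 8.69. The WT and GlycoHi ranges overlapped, and the lines differed by 1.42 ± 0.09, or 2.68-fold (limma adjusted p = 0.000521). Against WT, Bdh1 stood at -1.36 in GlycoLo (limma adjusted p = 0.000238) and at 0.06 in GlycoHi (limma adjusted p = 0.832). The other, Slc16a7, a carrier of pyruvate and ketone bodies, read 6.03, 5.87 and 5.97 in GlycoLo against 6.34, 6.41 and 6.42 in GlycoHi, with WT at 5.85, 5.48 and 5.54. Both lines thus lay above WT and GlycoHi lay highest, and the rise of 0.43 ± 0.07 (limma adjusted p = 0.0298) lost its call when any single array was left out (adjusted p up to 0.134). Decr1, an enzyme for unsaturated fatty acids, read 9.09, 9.12 and 9.11 against 9.85, 9.66 and 9.83, with WT at 9.80, 9.64 and 9.64 (0.67 ± 0.07; limma adjusted p = 0.00524). Abat, which breaks down the transmitter GABA, rose by 1.06 ± 0.11 (6.64, 6.36 and 6.64 against 7.77, 7.45 and 7.61), with WT at 7.50, 7.99 and 7.43. The calls of Bdh1, Decr1 and Abat were kept when any single array was left out. The acyl-CoA thioesterase Acot1 read 5.69, 5.68 and 5.74 in GlycoLo, 6.46, 6.62 and 6.22 in GlycoHi and 7.02, 6.75 and 6.76 in WT, so that both lines lay below WT and GlycoLo lay lowest. Its difference of 0.73 ± 0.10 lost its call without any single GlycoLo array and without GlycoHi replicates 1 and 2 in turn (adjusted p up to 0.106). Its mitochondrial relative Acot2 rose by 1.14 ± 0.15, a call lost without GlycoLo replicate 1 or 3 or any single GlycoHi array (adjusted p up to 0.118). The probe sets of close relatives such as these can share signal.

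**Figure D4:**
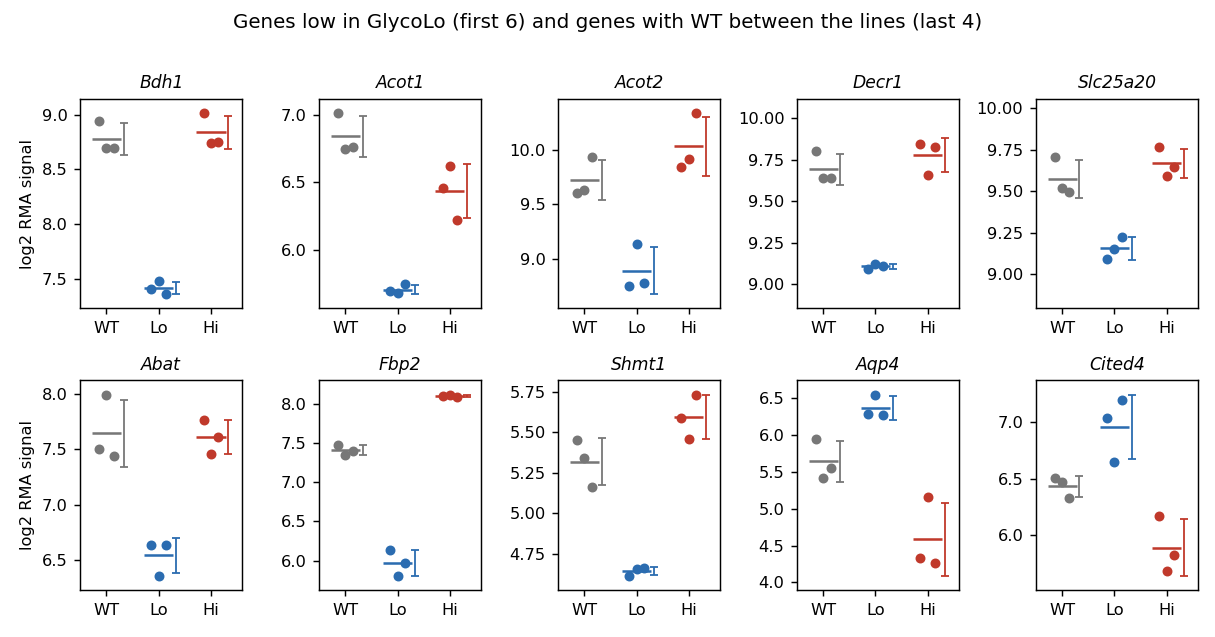
Log2 RMA signal of 10 genes on each array of WT (grey), GlycoLo (blue, Lo) and GlycoHi (red, Hi), with the mean and the SD over 3 hearts. In the first 6, GlycoLo lies below WT and GlycoHi; in the last 4 (Fbp2, Shmt1, Aqp4 and Cited4) the WT values lie between the lines.

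Of 25 PPAR alpha targets 4 rose and 1 fell, with a median of 0.29 and 19 members above 0. The 4 were Acot1, Acot2, the carnitine carrier Slc25a20 (0.51 ± 0.07) and the lipid droplet protein Plin5 (0.54 ± 0.09), and the calls of the last 2 were lost when any single array was left out (adjusted p up to 0.166). Against WT, the median of the list was -0.35 in GlycoLo and -0.05 in GlycoHi. Pdk4, the kinase that shuts pyruvate dehydrogenase and a well-known target, was not called: GlycoLo read 10.29, 11.83 and 10.40 and GlycoHi 11.73, 11.91 and 12.05. One GlycoLo heart thus reached the GlycoHi level, and the difference was 1.06 ± 0.36 (limma adjusted p = 0.290). Ces1d, which hydrolyses lipid esters, went the other way, at 8.69, 8.69 and 8.62 in GlycoLo and 6.98, 7.30 and 7.43 in GlycoHi (-1.43 ± 0.11; limma adjusted p = 0.00136). Its WT values of 9.40, 9.35 and 9.33 lay above both lines. Of 29 genes of fatty acid uptake and oxidation 3 rose (Decr1, Slc25a20 and Etfdh) and 0 fell, and the count was 1 without any one array in turn. Etfdh read between 3.05 and 3.58 on all 9 arrays, with WT overlapping GlycoLo. Cpt2, of fatty acid import into mitochondria, differed by 0.33 and Cpt1a by 0.47, neither called.

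In triglyceride storage and lipolysis 3 of 29 genes rose and 3 fell. Gpam, the first enzyme of glycerolipid synthesis, rose by 0.67 ± 0.09 and Agpat9, of the same step, by 0.64 ± 0.07. The falls were Ces1d, the phosphatidate phosphatase Lpin1 (-0.41 ± 0.06) and G0s2, an inhibitor of lipolysis (-0.67 ± 0.12). The call of Lpin1 was lost without each of the 6 arrays in turn (adjusted p up to 0.128), those of G0s2 and Gpam without 5 of them (up to 0.197 and 0.09999) and that of Agpat9 without GlycoLo replicate 3 (0.0509). Thrsp, a lipogenic gene listed as a marker of white fat, read 9.36, 9.25 and 9.63 in GlycoLo against 8.36, 8.31 and 8.34 in GlycoHi (-1.08 ± 0.10; limma adjusted p = 0.00292). It was the 1 called of 11 white adipocyte markers, of which 10 were below 0, with a median of -0.32. That median was -0.66 without GlycoLo replicate 2, -0.51 without GlycoHi replicate 1 and -0.19 without GlycoLo replicate 3. The mean level of that list lay at 5.84 to 6.39 in GlycoLo and 5.65 to 5.87 in GlycoHi, and Adipoq read 6.32, 4.77 and 6.16 against 5.62, 4.46 and 4.60. The part of adhering fat in the lipid results was not tested.

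Fbp2, the muscle enzyme that opposes phosphofructokinase 1 by removing a phosphate from its product, had WT between the lines. It read 6.14, 5.81 and 5.97 in GlycoLo, 7.48, 7.35 and 7.40 in WT and 8.10, 8.12 and 8.09 in GlycoHi. The groups did not touch, and the lines differed by 2.13 ± 0.09, or 4.37-fold (limma adjusted p = 4.20e-05). Against WT it was called in both lines and in opposite directions, at -1.44 in GlycoLo (limma adjusted p = 9.01e-05) and 0.69 in GlycoHi (limma adjusted p = 0.00186). It was the 1 called gene of 7 of gluconeogenesis, where Pck2 differed by 0.48 and Fbp1 by 0.17.

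Of the other genes with WT wholly between the lines, those with larger differences are given here. The water channel Aqp4 read 6.28, 6.55 and 6.26 in GlycoLo and 4.34, 5.15 and 4.26 in GlycoHi, with WT at 5.95, 5.42 and 5.55, a fall of 1.78 ± 0.22 (limma adjusted p = 0.0101). Another water channel, Aqp8, went up, from 5.44, 5.50 and 4.95 to 7.07, 6.65 and 7.07 (1.63 ± 0.17). Thus 2 water channels moved in opposite directions between the same hearts. Rgs7bp, which anchors regulators of G protein signalling, rose by 1.54 ± 0.11 and the ribosomal protein gene Rps4l by 1.38 ± 0.08. Falls were those of Tnnt1, the slow skeletal troponin T (-1.31 ± 0.11), Ddah1, which breaks down an inhibitor of nitric oxide synthesis (-1.13 ± 0.07), and Cited4, a transcription cofactor linked to exercise-induced heart growth. Cited4 read 7.04, 6.65 and 7.20 in GlycoLo, 6.50, 6.47 and 6.33 in WT and 6.16, 5.67 and 5.82 in GlycoHi (-1.08 ± 0.17; limma adjusted p = 0.0280). The calls of Aqp4 and Cited4 were each lost without 5 of the 6 single arrays, with adjusted p up to 0.0830 and 0.155.

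The list of glycolytic genes, which does not hold Fbp2, showed no called gene between the lines. Of 20 glycolytic genes 0 were called, with differences between -0.23 and 0.19 and a median of -0.03. Pfkm, the muscle phosphofructokinase 1, read 12.08, 12.04 and 12.05 in GlycoLo against 11.90, 11.74 and 11.85 in GlycoHi (-0.23 ± 0.07; limma adjusted p = 0.215). Hk2 differed by -0.04 and Ldha by -0.09, all 3 genes reading above 10 on every array. Of 25 genes of glucose uptake and side branches and of 21 genes of the TCA cycle 0 were called, with medians of -0.09 and -0.12. In glycogen metabolism 2 of 24 fell: Ppp1r3b, which brings a phosphatase to glycogen, from 7.76, 7.96 and 8.03 to 6.76, 6.90 and 6.72 (-1.12 ± 0.09), and Pygl, the liver glycogen phosphorylase, from 6.91, 6.77 and 7.10 to 6.08, 6.02 and 5.94 (-0.91 ± 0.09). Both calls were kept when any single array was left out.

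Respiratory chain genes lay slightly lower in GlycoHi, with 1 rise and 1 fall called among 58. Of the 58 genes 50 were below 0, where 51.1% of probe sets with 1 symbol were, and the median was -0.12. It ran from -0.12 to -0.11 under 3 other scalings of the arrays. The fall was Cox7a1, the heart and muscle isoform of a cytochrome oxidase subunit (-0.35 ± 0.06; limma adjusted p = 0.0444), and the rise was Cox8a, another subunit of the same complex (0.35 ± 0.06; limma adjusted p = 0.0453). Both calls were lost when any single array was left out (adjusted p up to 0.166), and that of Cox7a1 was also lost with arrays set to a common median. Esrrg, a nuclear receptor of mitochondrial genes, rose by 0.38 ± 0.06, read at 9.01, 8.89 and 8.92 against 9.30, 9.37 and 9.30, and was lost in the same way (adjusted p up to 0.165).

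Ion channel and cardiac transcription factor genes lay lower in GlycoHi, with few called. Of 21 sodium, calcium and pacemaker channel and pump genes 20 were below 0 (median -0.30), and 1 fell, Cacna1g, a T-type calcium channel of pacemaker and atrial cells. It read 6.87, 6.63 and 6.85 in GlycoLo, 6.32, 6.32 and 6.15 in WT and 5.90, 6.10 and 5.81 in GlycoHi (-0.85 ± 0.10; limma adjusted p = 0.00842), and its call was lost without replicate 1 or 3 of either line (adjusted p up to 0.0735). Gja1, the main gap junction gene of the ventricle, differed by -0.36 and was not called. Among 27 potassium channel genes 1 fell (median -0.15, and -0.08 without GlycoLo replicate 3), Kcnd2, a pore subunit of the transient outward current, from 8.82, 8.70 and 8.66 to 8.35, 8.26 and 8.13 (-0.48 ± 0.08), a call lost when any single array was left out (adjusted p up to 0.147). Its accessory subunit Kcnip2 read 7.37, 7.06 and 7.36 in GlycoLo and 6.29, 4.80 and 5.59 in GlycoHi. The GlycoHi hearts all lay lower but spread widely among themselves, and the difference of -1.70 ± 0.32 was not called (limma adjusted p = 0.0616). Of 25 calcium handling genes 0 were called, with a median of -0.16.

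Hopx, a homeodomain protein of cardiac development, read 12.57, 12.58 and 12.52 in GlycoLo, 12.53, 12.55 and 12.53 in WT and 11.72, 11.76 and 11.79 in GlycoHi. The GlycoLo and WT hearts read nearly the same value, and the fall of 0.80 ± 0.06 (limma adjusted p = 0.00127) was kept under every alternative. Tbx5, a factor of atrial and conduction identity, fell by 0.46 ± 0.08 and was lost when any single array was left out (adjusted p up to 0.165). These were the 2 called of 19 cardiac transcription factors, whose median was -0.27.

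Atrial markers lay lower in GlycoHi beside these genes, and their part in the channel and transcription factor results was not tested. Of 8 markers 0 were called and all 8 were below 0, with a median of -0.35, or -0.22 without GlycoHi replicate 1. Myl7, the atrial myosin light chain, read 12.66, 12.40 and 12.63 in GlycoLo against 11.29, 11.95 and 11.96 in GlycoHi, with WT at 11.85, 12.54 and 12.50. Sln, an atrial regulator of the calcium pump, differed by -0.79, Myl4 by -0.52, Kcnj3 by -0.38 and Nppa by -0.32. For Myl7, Sln, Myl4 and Nppa, WT replicate 1 read within the GlycoHi range and the other WT hearts above it, so these markers varied within a genotype. The mean level of the 8 markers was 8.92 to 9.04 in GlycoLo, 8.32 to 8.75 in GlycoHi and 8.57 to 9.06 in WT. The markers differed widely in level. Bmp10, a gene restricted to the atria in the adult heart, read below 5 on every array, and Myl7 read 11.29 or more.

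**Figure D5:**
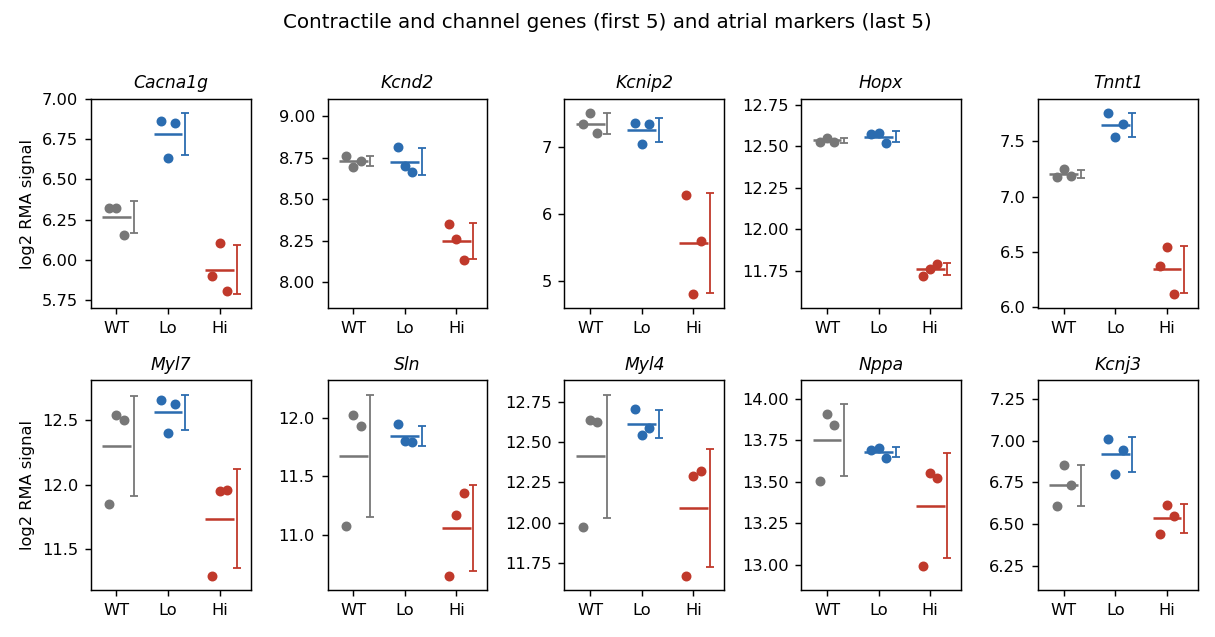
Log2 RMA signal of 5 channel, transcription and contractile genes (top) and 5 atrial markers (bottom) on each array, with WT in grey, GlycoLo in blue (Lo) and GlycoHi in red (Hi), means as lines and the SD over 3 hearts as bars. Hopx and Kcnd2 are tight within groups, while Myl7, Sln, Myl4 and Nppa have 1 low WT array and 1 low GlycoHi array.

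Contractile genes changed in few members: of 27 sarcomere genes Myl1 rose by 0.66 ± 0.07, from 11.64, 11.78 and 11.76 to 12.37, 12.41 and 12.38, and Tnnt1 fell. Tmod4, a skeletal muscle protein that caps actin filaments, read 7.57, 7.41 and 7.61 in GlycoLo and 6.48, 6.50 and 6.37 in GlycoHi (-1.08 ± 0.08; limma adjusted p = 0.00103). Myh7, the slow myosin, was not called between the lines, at 13.80, 13.71 and 13.80 against 13.82, 13.95 and 13.95 (0.14 ± 0.07; limma adjusted p = 0.461), while WT read 10.64, 11.77 and 10.65. Against WT it stood at 2.75 in GlycoLo (limma adjusted p = 0.00155) and 2.89 in GlycoHi (limma adjusted p = 0.000132), a departure that both lines share. Nppa and Nppb, the natriuretic peptides that mark a stressed heart, differed by -0.32 and -0.20 and were not called.

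Further large rises were those of Tchhl1 (2.31 ± 0.20), Bex1 (1.71 ± 0.17), the DNA repair gene Brca2 (1.68 ± 0.17), Disp1, which releases Hedgehog ligands (1.61 ± 0.19), and Rasgef1a, an activator of Ras (1.58 ± 0.13). Bex1 differed from the rest in that both lines lay above WT in steps: 7.30, 7.21 and 6.89 in WT, 8.92, 8.38 and 8.23 in GlycoLo and 10.39, 10.05 and 10.22 in GlycoHi. Among 29 cell cycle genes 2 rose and 1 fell. Ccnd2, a G1 cyclin, read 5.56, 5.04 and 5.70 against 6.999, 6.819 and 6.927 (1.48 ± 0.16), and Mcm2, of the replication helicase, rose by 0.78 ± 0.09, while the centromere histone gene Cenpa fell by 0.74 ± 0.08. Calls were lost for Disp1 without replicate 2 of either line, GlycoLo replicate 3 or GlycoHi replicate 1 (adjusted p up to 0.0643), for Ccnd2 without GlycoHi replicate 1 or 3 (up to 0.0523) and for Mcm2 without GlycoLo replicate 1 or 3 (up to 0.0520).

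Further large falls included Fos, an immediate early factor, which read 8.17, 7.63 and 7.94 in GlycoLo and 6.24, 5.96 and 6.76 in GlycoHi, with WT at 8.46, 9.38 and 8.80. The lines did not overlap, the fall was 1.59 ± 0.21 (limma adjusted p = 0.0131), and it was lost without replicate 1 of either line, GlycoLo replicate 3 or GlycoHi replicate 2 (adjusted p up to 0.112). Fos was the 1 called of 24 immediate early genes, of which 19 were below 0 (median -0.19, but -0.33 without GlycoLo replicate 2 and -0.32 without GlycoHi replicate 3). Frem2, of the basement membrane, fell by 1.33 ± 0.12, Ptgfr, a prostaglandin receptor, by 1.05 ± 0.08 and Ramp1, which completes the receptor of the peptide CGRP, by 1.04 ± 0.13. Rasl10a fell by 1.08 ± 0.18 and Fgf12, an intracellular partner of sodium channels, by 1.01 ± 0.17. The calls of Rasl10a, Fgf12 and Ramp1 were lost without 6, 5 and 5 of the 6 single arrays (adjusted p up to 0.179, 0.181 and 0.0805). Alas1, the first enzyme of heme synthesis, read 10.10, 9.91 and 10.15 in GlycoLo and 9.22, 9.26 and 9.01 in GlycoHi (-0.89 ± 0.09; limma adjusted p = 0.00504) and was kept when any single array was left out. Outside the serine list, Aass of lysine breakdown rose by 0.84 ± 0.08 and Got2, the mitochondrial aspartate aminotransferase, fell by 0.61 ± 0.09, the latter lost without 5 of the 6 single arrays (adjusted p up to 0.144).

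The tissue label was borne out by cardiomyocyte markers such as Tnni3, cardiac troponin I, which read between 13.77 and 13.82 on all 9 arrays. Of the 12 cardiomyocyte markers 0 were called and 10 were below 0. Their mean level was 11.66 to 11.72 in GlycoLo, 11.52 to 11.57 in GlycoHi and 11.74 to 11.78 in WT. The lines differed by -0.15 in this level. Of the markers of fibroblasts, endothelial cells, smooth muscle and pericytes, macrophages, lymphocytes, neutrophils, erythroid cells, epicardium and Schwann or nerve cells 0 were called, with medians between -0.16 and 0.05. In the conduction cell and brown adipocyte lists 1 of 8 fell in each, Cacna1g and Cox7a1, described above. In the skeletal muscle list 11 of 12 were below 0 (median -0.14) and 1 fell, Tnni2, near the bottom of the scale, a call lost when any single array was left out (adjusted p up to 0.179). The part of skeletal muscle RNA in the falls of Tnnt1 and Tmod4 was not tested.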

How the data were processed

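Heart RNA of 9 samples from male FVB mice, 3 each of WT, GlycoLo and GlycoHi, was extracted with Trizol and hybridised as biotin-labelled cRNA to Affymetrix mouse arrays, as the labels' protocols say. Signals were summarised by the robust multiarray average (RMA), per the submitters' processing notes, and the authors deposited them as log2 values. How RMA was set for background and scaling is not given in the sources. Another deposited table repeats these log2 values (largest difference 8.9e-16) with gene symbols, an SD score column and the authors' own p-value columns. The submitters' processing notes also name limma, without its model.

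Of 45101 probe sets 64 controls were left out and 45037 tested. The table names 1 symbol for 19760, several for 876 and a spreadsheet date for 24. The other 24377 are unnamed here, and 138 of the called probe sets are among them. Each symbol has 1 listed probe set. The contrast was fitted with limma 3.58.1 in R 4.3.3 on the 6 GlycoHi and GlycoLo arrays (4 residual and 4.01 prior degrees of freedom), with Benjamini-Hochberg adjustment over all 45037. The values of each line against WT come from 1 model of all 9 arrays (6 residual and 4.66 prior degrees of freedom). A single gene with 3 hearts against 3 cannot go below p = 0.1 in an exact permutation test, and the number of arrays limits the precision. A GlycoHi or GlycoLo heart stood apart from WT where the 3 values of a group did not overlap those of WT.

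The contrast and the 58 gene lists (42 pathway lists and 16 lists of cell type markers; 977 of 1003 genes matched, 8 by synonym) were chosen with earlier results of these data known. Lists are described by counts and medians. Genes were named by rule: among called probe sets with 1 symbol and groups that did not overlap, the 15 largest rises and 15 largest falls; up to 10 with WT wholly between the lines; the 4 Pfkfb genes; up to 6 called members of each list; and up to 2 members of a pathway list with none called. A few genes that the rule or the lists hold are not reported here. Other genes named were chosen after their values were seen. Promoters came from RefSeq (GRCm38.p6) and no other coordinates are given, since no build is named for the array.

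The groups share replicate numbers, though no label ties a number to a litter, batch or day. Deviations of arrays with the same number correlated at 0.0546, 0.0165 and -0.00602, so they were not treated as pairs. The test was run on simulated data with known changes and independent normal noise, which real arrays need not follow. It recovered 80% of the changes of 0.5 and 100% of those of 1, 2 and 4. Of its 203 calls 13 were false. Python 3.11.15 with pandas 2.3.3 and matplotlib 3.10.9 drew the figures.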

Additional observations from a re-analysis of the deposited data

Results flagged for a closer look

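Among called genes with 1 symbol, 67 had all GlycoLo arrays on one side of all WT arrays and all GlycoHi arrays on the other. This position held for 103 of the 444 called probe sets (23.2%) and for 0.677% of all probe sets tested. In 8 of the 67, given here, the lines thus lay on opposite sides of WT, a statement of ranges and not of a test. The difference between the lines, tested by limma in the 6-array model, was 2.13 for Fbp2, 1.63 for Aqp8, 1.54 for Rgs7bp and 1.38 for Rps4l. It was -1.78 for Aqp4, -1.31 for Tnnt1, -1.13 for Ddah1 and -1.08 for Cited4. Of these, Fbp2 was called against WT in both lines. Cited4 was called against WT in neither (adjusted p = 0.273 in GlycoLo and 0.103 in GlycoHi), and the other 6 were called against WT in GlycoHi alone, a difference between calls that is no test of itself. The 8 genes are among those with the largest differences of the 67.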

How the results depend on the processing

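The count of called probe sets (444, of which 267 higher and 177 lower) was within 1.5 times of this with arrays set to a common median (455), cyclic loess (468), quantile normalization (475), array weights (439) or, chosen after seeing the data, only the listed probe sets (319). It was 771 (431 higher, 340 lower) with all 9 arrays in the model, 781 (440 and 341) without dim probe sets, 1230 (641 and 589) with a trended and robust variance, 889 (498 and 391) at an adjusted p under 0.1 and 265 (170 and 95) with a 1.5-fold minimum. With the replicate number as a block, which the labels and the data do not bear out as a pairing, it was 279 (177 and 102), of which 257 were called without the block. Leaving out 1 array at a time gave 135 to 208 calls (98 to 134 higher, 37 to 74 lower), with fewer samples in each fit, and 132 to 191 of them were shared. GlycoLo replicate 3 gave the lowest count. Of the pathway list genes 72 were called, 154 with the trended variance, 112 at an adjusted p under 0.1 and 35 to 49 when each array was left out in turn. Of 89 called genes named by the rule or added to the text, 43 kept their call under every alternative and 46 lost it under at least 1; all 89 kept their direction. The direction turned for 2 genes not called: Pfkfb2 ranged from -0.28 to 0.085 when single arrays were left out and was above 0 without GlycoLo replicate 1. Pfkfb4 ranged from -0.077 to 0.14 and was below 0 without GlycoLo replicate 1 and, at -0.0055, without GlycoHi replicate 1. The cause was not tested. The median of 40 of the 58 lists kept its sign under every alternative, and the other 18 had medians between -0.09 and 0.05. Signals near the bottom of the scale, as for Etfdh and Tnni2, limit what can be seen there.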
